A study of Mus musculus with 29 samples.

Results

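Schwann cells wrap the motor and sensory axons that run inside a muscle, and some of them are carried along when a whole muscle is taken for RNA. The 7 genes described here, Mbp, Pmp22, Prx, Cnp, Sox10, Egr2 and S100b, are widely used to mark these cells and their myelin. They were picked by symbol from the 22537 genes of the count table, and the pick used none of their values. The whole tibialis anterior (TA), a fast muscle of the lower hindlimb, was taken from male C57BL/6 mice of an aging colony at 6m, 24m and 28m (months of age), and its poly-A RNA was sequenced. The first sequencing run compared 7 mice of 6m with 7 of 24m. For the second run those 7 young mice were prepared again, beside 8 mice of 28m, a group the labels give as 28 months or older. The labels name no transgene and no treatment, all ages went through the same tests of physical function before collection, and each library was made from the muscle of 1 mouse. The age comparisons were made within a run, 24m against 6m in the first and 28m against 6m in the second.

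Myelinating Schwann cells form a sheath of compacted membrane around an axon segment. Sox10 is the transcription factor that sets and keeps the Schwann cell fate, and Egr2 (Krox20) is the factor that switches on the myelin genes together with it. Prx (periaxin) links the outer sheath to the basal lamina, while Mbp and Pmp22 lie in compact myelin and Cnp in the uncompacted channels of the sheath. S100b encodes a calcium-binding protein used to stain Schwann cells, which other cells also make.

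All 7 genes were counted in every library. Total counts per library were between 17633475 and 33499162. Counts of single libraries ran from 208 to 607 for Mbp, from 305 to 961 for Pmp22, from 82 to 254 for Prx and from 176 to 384 for Cnp. They were much lower for the other three, from 8 to 71 for Sox10, from 5 to 72 for Egr2 and from 10 to 169 for S100b, so that counting error weighs more on these. Levels are given as CPM, the count of a gene scaled to a fixed library total, after TMM scaling over all 29 libraries. Set per kilobase of exonic length, Pmp22 had the highest level in the 6m libraries of the second run, with a mean of 10.1 CPM per kb and a range from 8.47 to 13.6. Cnp followed at 3.12 (2.48 to 3.94), Mbp at 1.68 (1.39 to 2.10), Prx at 1.20 (0.850 to 1.65), S100b at 0.616 (0.380 to 0.931), Sox10 at 0.432 (0.148 to 0.534) and Egr2 at 0.256 (0.0614 to 0.50), all in CPM per kb with n = 7. Pmp22 and Cnp stood apart from their neighbours in this order, and the ranges of each later pair of neighbours overlapped. The order rests on the length used. Mbp has an exonic length of 8469 bases over all its transcripts, which include those that start far upstream, but a median transcript length of 1803 bases, and per kb of the latter its mean level was 7.91, above the 5.71 of Cnp.

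Muscle fibre genes dominated the libraries, as the label of the tissue says: Acta1, Ckm, Myh4, Tnnt3 and Tnni2 summed to between 84191 and 173110 CPM. The markers of oligodendrocytes, the myelin-forming cells of the brain and spinal cord that also use Mbp, Cnp and Sox10, were near 0. Of Mog, Mobp, Opalin, Cldn11 and Olig2, the highest count in any library was 7, for Cldn11. Markers of melanocytes, which also use Sox10, did not exceed 10 counts in any library, for Pmel, and Tyr reached 1. Neither list passed the filter on low counts, so no gene of them was tested.

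**Figure D1:**
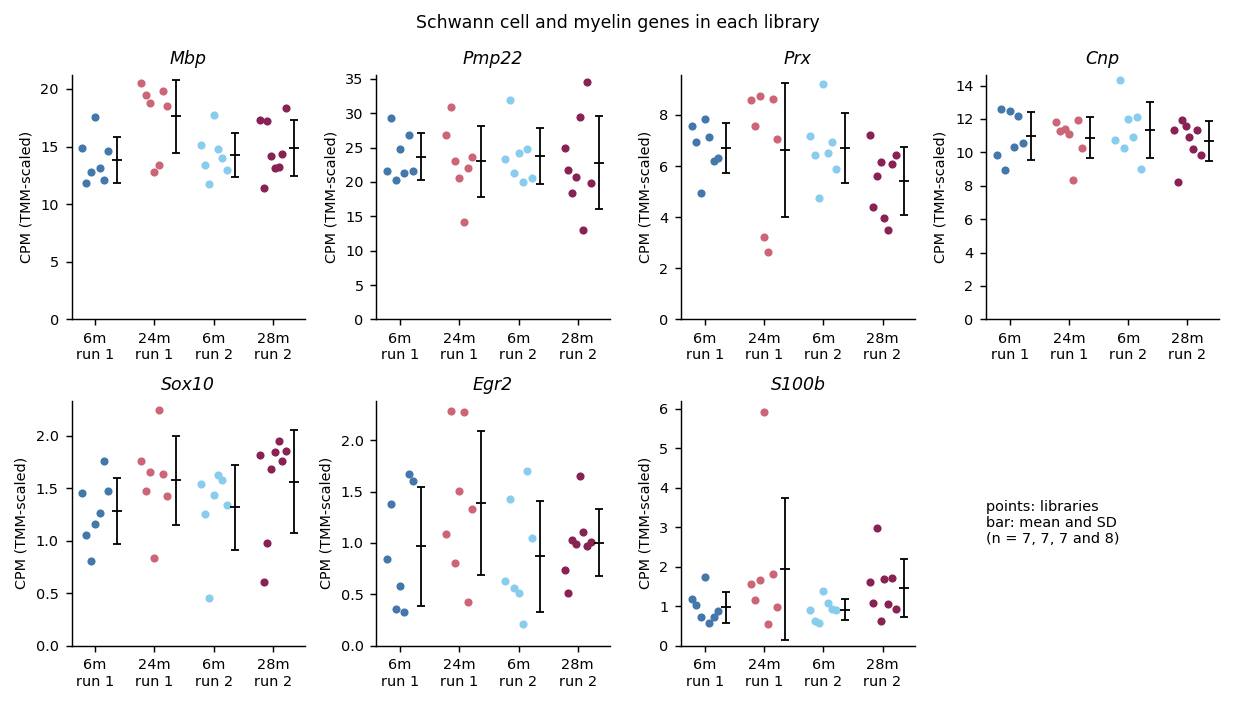
Levels of the 7 Schwann cell and myelin genes as TMM-scaled CPM (y axes, from 0) in each library of the 4 groups (x axes), with the mean and SD beside the points (n = 7, 7, 7 and 8). Most points of the old groups lie among those of the 6m groups, Mbp lies high in 5 of the 7 libraries at 24m, Prx lies low in 2 of them, and S100b reaches 5.91 CPM in one.

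None of the 7 genes passed the test at either age. At 28m 6140 of all 12994 genes tested passed an adjusted p of 0.05 by edgeR's quasi-likelihood test, which is 47.3%, while 0 of the 7 members did, with 1 of them, S100b, at an unadjusted p under 0.05 (0.0411). Against the 6m libraries of the other run 2981 genes passed at 28m and 46 at 24m. The median log2 fold change of the members was 0.03, and that of all genes tested was 0.01. At 24m the share of all genes called was 0.084% (11 of 13103, 215 by DESeq2 and 4 to 30 without single libraries), and again 0 of the 7 members passed, with Mbp and S100b at an unadjusted p under 0.05 (0.0206 and 0.0415). The median of the members was 0.29 at 24m, beside 0.03 over all genes. These are bulk measurements of a whole muscle, in which fewer Schwann cells and less RNA per Schwann cell cannot be told apart.

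Mbp encodes myelin basic protein, which holds the inner faces of the compacted membrane together. Its level at 6m in the second run was between 11.7 and 17.8 CPM with a median of 14.1, and at 28m between 11.4 and 18.3 with a median of 14.2. The groups covered the same range, with 6 of the 8 mice at 28m inside that of the 6m libraries. The log2 fold change was 0.03 with a 95% interval from -0.21 to 0.27 (SE 0.11, edgeR adjusted p = 0.816). In the first run Mbp lay between 11.8 and 17.6 CPM at 6m (median 13.1) and between 12.8 and 20.5 at 24m (median 18.8). At 24m 5 of the 7 values exceeded every 6m value of their run, at 18.6 to 20.5 CPM, and the other two lay inside the 6m range. This gave a log2 fold change of 0.34 (interval 0.06 to 0.62, SE 0.13), which did not pass the adjustment over all genes (edgeR adjusted p = 0.368). The difference between the 28m and 24m effects was -0.29 (interval -0.64 to 0.07, edgeR adjusted p = 0.474).

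Pmp22, a membrane protein of compact myelin whose dose is altered in common inherited neuropathies, is also made by other cell types. It lies at chr11:63128982-63159547 on GRCm38 (mm10). It was at 19.9 to 32.0 CPM at 6m in the second run (median 23.3) and at 12.96 to 34.6 CPM at 28m (median 21.2), so that the spread at 28m took in that at 6m on both sides. Its log2 fold change was -0.08 (interval -0.44 to 0.27, edgeR adjusted p = 0.693). At 24m it was at 14.2 to 30.9 CPM (median 23.1), against 20.2 to 29.3 at 6m in that run (median 21.5). The log2 fold change there was -0.05 (interval -0.37 to 0.28, edgeR adjusted p = 0.905).

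Prx lies at chr7:27499324-27520214 on GRCm38 and is made almost only by myelinating Schwann cells among the cells of a nerve. It was at 4.74 to 9.21 CPM at 6m in the second run (median 6.51) and at 3.48 to 7.21 CPM at 28m (median 5.85). At 28m 3 of the 8 mice lay below every 6m library of the run and none lay above. This gave a log2 fold change of -0.33 (interval -0.68 to 0.02, SE 0.17, edgeR adjusted p = 0.105). At 24m the libraries held 8.60, 7.58, 8.73, 3.22, 2.62, 8.63 and 7.05 CPM in replicates 1 to 7, against 4.96 to 7.82 CPM at 6m in that run (median 6.94). These values fell on both sides of the 6m range, 3 above it and 2 below it, and the log2 fold change was -0.02 with a wide interval from -0.56 to 0.52 (edgeR adjusted p = 0.976). No mouse at 24m lay between 3.22 and 7.05 CPM, where the group mean of 6.63 CPM lies (SD 2.62, n = 7).

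Cnp encodes an enzyme that keeps cytoplasmic channels of the sheath open and lies at chr11:100574904-100591729 on GRCm38. Its levels lay close together at all ages. It was at 9.02 to 14.4 CPM at 6m in the second run (median 10.9) and at 8.20 to 11.9 CPM at 28m (median 11.1), with 7 of 8 mice at 28m inside the 6m range. Its log2 fold change was -0.12 (interval -0.34 to 0.11, edgeR adjusted p = 0.369), and it was -0.05 without 6m replicate 2 and -0.17 without 6m replicate 7. At 24m it was at 8.34 to 11.9 CPM (median 11.3) against 8.93 to 12.6 (median 10.5), a log2 fold change of -0.02 (interval -0.26 to 0.21, edgeR adjusted p = 0.936). The interval at 24m leaves out any change of more than 0.26 on the log2 scale in either direction. Exons of Cnp share 154 bases with those of Dnajc7 on the opposite strand, and exons of Prx share 300 bases with the antisense gene Gm15541, and because the strand setting of the counting is not stated, some reads of these genes cannot be told apart from those of their partners.

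Sox10 lies at chr15:79154908-79165240 on GRCm38. It was at 0.452 to 1.63 CPM at 6m in the second run (median 1.43) and at 0.606 to 1.95 CPM at 28m (median 1.79). At 28m 6 of the 8 mice lay above all 6m libraries of the run, in a narrow band from 1.69 to 1.95 CPM, and the others were at 0.606 and 0.979 CPM, from 13 and 20 counts. The log2 fold change was 0.22 (interval -0.34 to 0.77, SE 0.26, edgeR adjusted p = 0.510), and it was 0.07 without 6m replicate 3, the lowest library of the run at 0.452 CPM, and 0.34 without 28m replicate 2. At 24m it was at 0.839 to 2.24 CPM (median 1.63) against 0.804 to 1.76 (median 1.26), with 2 of 7 mice above the 6m range, and the log2 fold change was 0.29 (interval -0.17 to 0.75, edgeR adjusted p = 0.572).

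Egr2 lies at chr10:67535475-67542188 on GRCm38. It was the most variable member among the 6m mice, at 0.326 to 1.67 CPM in the first run (median 0.848) and at 0.209 to 1.70 CPM in the second (median 0.633). At 28m it was at 0.513 to 1.65 CPM (median 1.0), with all 8 mice inside the 6m range and a log2 fold change of 0.16 (interval -0.57 to 0.89, SE 0.35, edgeR adjusted p = 0.719). It was -0.02 without 6m replicate 5 and 0.42 without 6m replicate 6, the lowest and the highest of the second-run 6m libraries. At 24m it was at 0.429 to 2.28 CPM (median 1.33), with 2 of 7 mice above the 6m range and a log2 fold change of 0.51 (interval -0.39 to 1.41, SE 0.42, edgeR adjusted p = 0.608).

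S100b lies at chr10:76253853-76261159 on GRCm38 and had the largest estimates of the members. It was at 0.564 to 1.38 CPM at 6m in the second run (median 0.907). At 28m the replicates 1 to 8 held 1.62, 1.07, 2.99, 0.617, 1.69, 1.06, 1.72 and 0.928 CPM (median 1.35). At 28m 4 of the 8 lay above all 6m libraries of the run and none below. The log2 fold change was 0.64 (interval 0.03 to 1.25, SE 0.29), with an adjusted p of 0.0778 by edgeR, and without 28m replicate 4, the lowest of the 8, it was 0.75 with an edgeR adjusted p of 0.0274. Without 28m replicate 3, the highest, it was 0.43 (edgeR adjusted p = 0.172). At 24m the replicates 1 to 7 held 1.56, 1.16, 1.65, 5.91, 0.537, 1.80 and 0.970 CPM, against 0.571 to 1.74 CPM at 6m in that run (median 0.886). The log2 fold change of 0.98 (interval 0.04 to 1.91, edgeR adjusted p = 0.415) rested on 1 mouse, and it was 0.39 without 24m replicate 4.

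No difference between the 2 age effects passed the test for a member. In the model of all 29 libraries the difference of the effects, 28m minus 24m, was between -0.33 (Egr2, interval -1.48 to 0.82) and -0.02 (Pmp22, interval -0.49 to 0.46), with 0 of the 7 members past the threshold. Of all genes 0% passed (0 of 13455 by edgeR, 1611 at an unadjusted p under 0.05, and 2 by DESeq2). This count rose to 1657 without 24m replicate 4, and no member was among them. The groups at 24m and 28m were sequenced in different runs and tied only through the 6m mice.

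**Figure D2:**
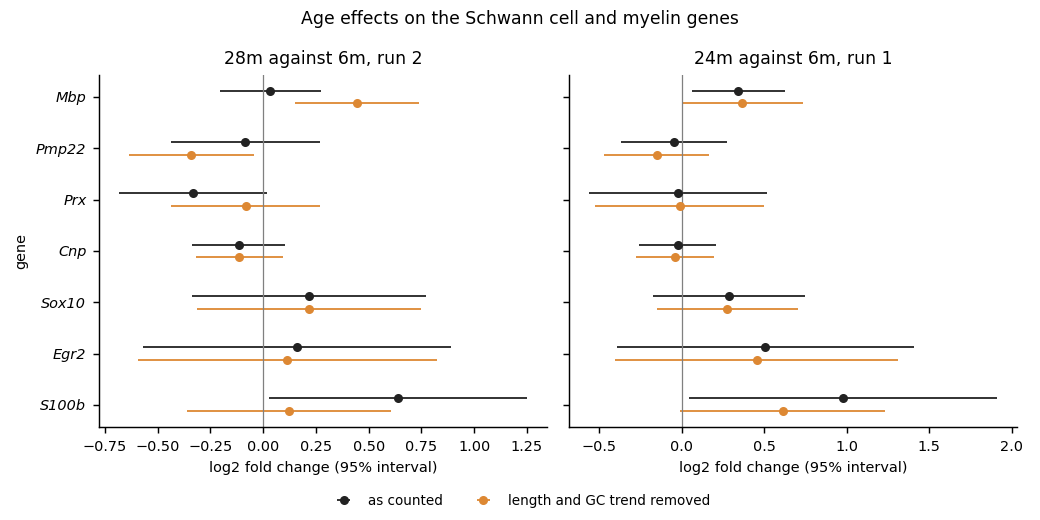
Log2 fold change (x axes) of the 7 genes with 95% intervals for 28m against 6m in the second run (left) and 24m against 6m in the first run (right), as counted (black) and with each library's trend with exonic length and GC content removed (orange). The interval of Mbp at 28m lies around 0.03 as counted and around 0.45 after the removal, and that of S100b moves from 0.64 to 0.12.

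The estimates of Mbp, S100b, Prx and Pmp22 at 28m moved when a trend of the libraries with gene length was removed. In each library the deviation of every gene from its mean over all libraries was set against exonic length, which gave a Spearman rho across genes between -0.515 and 0.272 at 28m and between 0.336 and 0.452 at 6m in the second run, with no overlap. In the first run the rho was between -0.470 and 0.456 at 6m and between -0.394 and 0.320 at 24m. With the trend with length and GC content removed from each library, Mbp rose at 28m (log2 fold change 0.45, interval 0.15 to 0.74, edgeR adjusted p = 0.0195), S100b was at 0.12 (interval -0.36 to 0.60), Prx at -0.08 and Pmp22 at -0.34 (interval -0.64 to -0.04, edgeR adjusted p = 0.0652). With this correction 4846 of 12994 genes were called at 28m (37.3%). These values depended on the length used. With the median transcript length of every gene in place of its exonic length, a choice made after the values were seen, Mbp was at 0.07 (edgeR adjusted p = 0.670), S100b at 0.60 and Prx at 0.13. For Mbp, the mouse of 6m replicate 4 was at 17.6 CPM with a rho of -0.470 in the first run and at 17.8 CPM with a rho of 0.383 in the second. S100b, with 1484 exonic bases the shortest member by that measure, was highest within the first-run 6m group in replicate 4 (1.74 CPM, rho -0.470) and within 24m in replicate 4 (5.91 CPM, rho -0.394), each the library with the lowest rho of its group. The second-run 6m group, whose rho values lay close together, went the other way, with S100b highest in replicate 4 (1.38 CPM, rho 0.383, the third highest) and lowest in replicate 3 (0.564 CPM, rho 0.344, the second lowest). At 28m it was lowest in replicates 4 and 8 (0.617 and 0.928 CPM), the libraries with the highest rho (0.167 and 0.272). The part of this library property in the values of the members was not tested beyond these corrections.

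Libraries of the same mouse were compared for the 7 mice at 6m, which were each sequenced in both runs. No gene passed between the runs (0 of 12884 by edgeR, 0%, with 357 at an unadjusted p under 0.05), and the members differed by -0.13 (Egr2) to 0.06 (Sox10) on the log2 scale. Over the 7 mice Egr2 held its order best, with Pearson's r = 0.91 (exact permutation p = 0.00456, adjusted over the 7 genes 0.0160) and Spearman's rho = 0.93 (exact permutation p = 0.00675, adjusted 0.0472). Without the 2 mice farthest from the median, r was still 0.92. The mouse with the lowest Egr2 in the second run, replicate 5 at 0.209 CPM, was also the lowest in the first, at 0.326 CPM, and replicate 6 was the highest in both, at 1.67 and 1.70 CPM. Egr2 thus differed between mice of one age by more than between 2 libraries of a mouse: the SD between mice was 0.90 on the log2 scale in each run, and the SD of the differences within mice was 0.39.

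Pmp22 (r = 0.89, exact permutation p = 0.00437, adjusted 0.0160), Prx (r = 0.86, exact permutation p = 0.0151, adjusted 0.0340) and Sox10 (r = 0.81, exact permutation p = 0.0194, adjusted 0.0340) also correlated between the libraries of a mouse. Their Spearman's rho was 0.82, 0.79 and 0.64, with exact permutation p adjusted to 0.112, 0.112 and 0.194. Without the 2 farthest mice their r fell to 0.68, 0.43 and 0.38, so that much of it rests on those mice. For Cnp (r = 0.72, rho = 0.75, exact permutation p = 0.0562 and 0.0663, adjusted 0.0786 and 0.116), Mbp (r = 0.69, rho = 0.61, exact permutation p = 0.0847 and 0.167, adjusted 0.0988 and 0.194) and S100b (r = 0.39, rho = 0.14, exact permutation p = 0.386 and 0.783, adjusted by the same values) the order of the mice was not shown to recur. Without the 2 farthest mice r was 0.47, -0.15 and 0.22 for these genes.

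**Figure D3:**
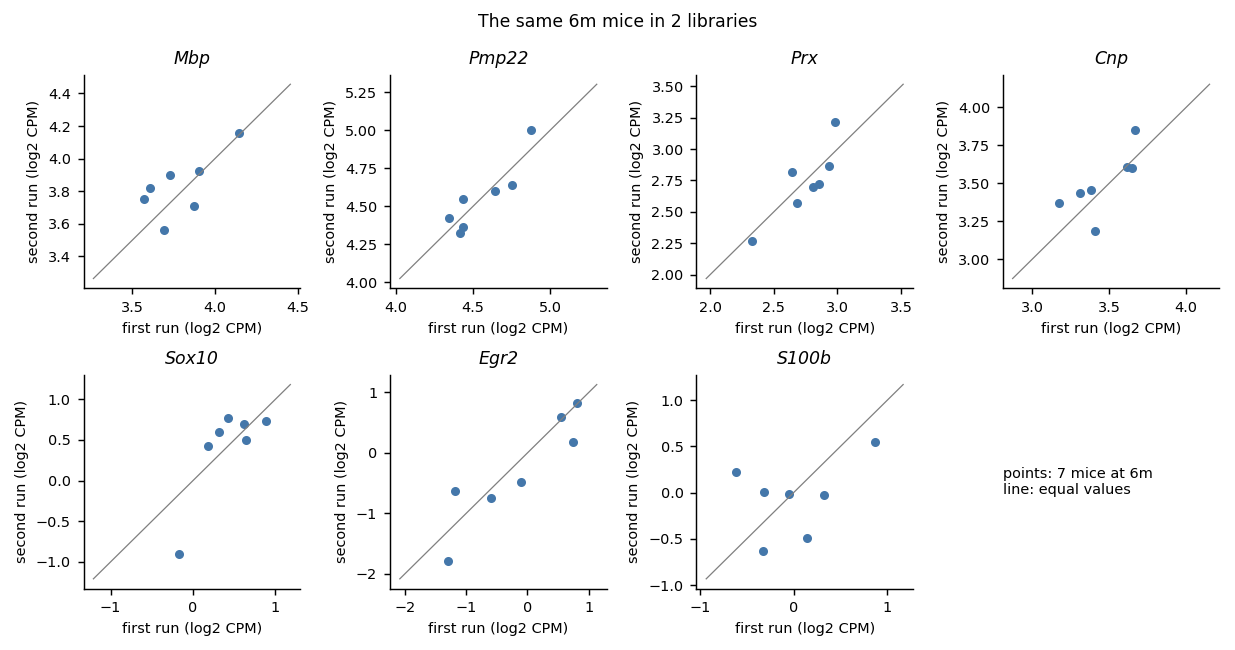
Log2 CPM of the 7 genes in the first library (x axes) and the second library (y axes) of each of the 7 mice at 6m, with the line of equal values. Egr2 spreads over the widest range and stays near the line, whereas S100b scatters around it.

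The 7 genes did not vary as 1 group. Over the 29 libraries, as deviations from the group means in log2 CPM, the 21 pairs of members had a median Pearson r of 0.21, with a range from -0.27 (Prx and Egr2) to 0.82 (Prx and Mbp). These libraries include 2 from each 6m mouse and share their depth and preparation, so the values are descriptions. Pmp22 went with Cnp at 0.57 and with Prx at 0.50, and Prx with Cnp at 0.50. The 10 genes nearest to the mean deviation of the members, out of 13455, were Pea15a (r = 0.82), Gpc3, Osr2, Nek8, Negr1, Fam117a, Efemp1, Sept6, Xpnpep2 and Matn4 (r = 0.71), none of which is in the Schwann cell lists used here. Likeness to each member alone was added after the values were seen. Prx had r = 0.89 with Cyp2d22 and 0.87 with Mylk2, ahead of 0.85 with Mal, a myelin proteolipid. With the Schwann cell list genes Mag, Erbb3, Cdh19, Ngfr and Gldn its r was 0.79, 0.11, 0.08, -0.08 and -0.64. Mbp was nearest to Prx. Pmp22 was nearest to Procr (r = 0.86), C1s and Rbpj, and had r = 0.68 with Pdgfra, a fibroblast marker, beside 0.55 with Mal. S100b was nearest to Gmpr (r = 0.94) and had Fn3k at 0.93, with 0.40 for Mag, 0.20 for Mbp, 0.15 for Mal and -0.81 for Erbb3, the neuregulin receptor of Schwann cells. Without 24m replicates 4 and 5 its r was 0.88 with Gmpr, 0.51 with Mag, 0.46 with Mbp and 0.22 with Mal. Sox10 had r = 0.79 with Bcl7a and Hoxa2 and r = 0.56 with Cdh19, a cadherin of Schwann cells and their precursors.

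Egr2 was nearest to Sertad4 (r = 0.83) and Ccnd2 (r = 0.82). Egr2 is also one of the immediate early genes, which cells switch on within minutes of a stimulus. With the 8 others on that list its r was 0.74 (Junb), 0.68 (Fos), 0.68 (Egr1), 0.62 (Fosb), 0.51 (Ier2), 0.50 (Egr3), -0.07 (Nr4a1) and -0.09 (Arc), with a median of 0.57. With Prx it was -0.27, with Mbp -0.25 and with Sox10 0.26. At 6m in the first run Fos was at 3.97 to 58.6 CPM, and replicate 2, the highest at 58.6 CPM, was again the highest in the second run at 57.9. Of the immediate early list 0 of 7 tested genes passed at 28m, beside 47.3% of all genes, and 0 of 8 at 24m, beside 0.084%.

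To set sequence beside these values, the 250 bases before annotated starts were read from RefSeq on GRCm38.p6 (mm10), in 12 windows of 5 of the 7 members. Sox10 had no entry there, and windows of Mbp were left out of the reading. Shown are the windows of Prx, the member that varied most closely with another (Mbp), of Cnp, whose levels lay close together at all ages, and of Egr2, the most variable member among the 6m mice. All are on the + strand, Prx at chr7:27499074-27499323, Cnp at chr11:100574689-100574938 and Egr2 at chr10:67537619-67537868, in lower case with motif matches in capitals.
Prx: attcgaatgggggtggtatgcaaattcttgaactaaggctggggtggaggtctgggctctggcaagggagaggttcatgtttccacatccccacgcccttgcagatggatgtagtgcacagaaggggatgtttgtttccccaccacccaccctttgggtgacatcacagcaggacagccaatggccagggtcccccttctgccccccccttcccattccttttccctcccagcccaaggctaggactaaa
Cnp: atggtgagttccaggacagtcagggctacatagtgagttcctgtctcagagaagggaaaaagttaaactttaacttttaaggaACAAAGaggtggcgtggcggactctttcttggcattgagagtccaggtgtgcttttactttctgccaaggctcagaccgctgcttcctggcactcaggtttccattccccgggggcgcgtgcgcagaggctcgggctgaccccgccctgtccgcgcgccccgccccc
Egr2: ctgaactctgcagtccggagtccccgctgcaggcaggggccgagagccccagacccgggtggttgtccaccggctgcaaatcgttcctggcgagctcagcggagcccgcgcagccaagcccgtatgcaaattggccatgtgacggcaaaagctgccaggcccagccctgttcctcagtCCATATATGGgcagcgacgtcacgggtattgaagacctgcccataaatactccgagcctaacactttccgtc
The capitals in Cnp mark ACAAAG, 167 bases before the start, 1 of the 2 Sox motifs searched (ACAAAG and ACAATG, both strands), which 25.2% of all 32851 windows hold. The capitals in Egr2 mark a CArG box, the letters read by serum response factor at immediate early genes, 72 bases before the start. It was in 4 of the 5 Egr2 windows, 3 of which overlap around the same site, and in no window read for another member, against 1.47% of all windows. The Egr motifs GCGTGGGCG and GCGGGGGCG were in 0 of the 12 windows, against 3.06% of all windows, and the cyclic AMP response motif TGACGTCA was in 0 of 12, against 1.55%. The CArG box and the cyclic AMP motif were searched after the windows had been read. These are matches of letters only, and no binding was measured.

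Prx and Mal were low together in single old mice. The 3 libraries described next were singled out after their values were seen, so no test is given. One of them, 24m replicate 4, also had the lowest rho of its group with exonic length (-0.394), and without it 1657 genes passed for the difference of the age effects, against 0 with it. Mal was at 1.90, 1.80, 1.89, 0.769, 0.506, 2.79 and 1.58 CPM in 24m replicates 1 to 7, from 16 to 65 counts, and at 1.21 to 2.27 CPM at 6m in that run. Replicates 4 and 5 were the lowest for Prx and Mal, and also for Mag (0.420 and 0.221 CPM, the others at 0.517 to 0.914), the glycoprotein that faces the axon. In replicate 4 endothelial markers were low as well, with Cdh5 at 23.1 CPM (86.3 to 122 in the 5 mice beside replicates 4 and 5), Kdr at 10.5 (31.2 to 79.9), Pecam1 at 47.7 (78.1 to 96.1) and Tek at 15.1 (24.0 to 31.7), but not Emcn at 14.9 (8.67 to 13.4), and the fibroblast marker Dcn was the highest of the group at 1033 CPM. In replicate 5 Pecam1 and Tek lay just below those 5 mice, at 72.3 and 20.1 CPM, and Cdh5, Kdr and Emcn lay among them. Dcn was the lowest of the group there, at 215 CPM (247 to 442 in those 5 mice). The part of these cells in the low myelin values was not tested. Mbp was at 12.8 and 13.4 CPM in replicates 4 and 5, the lowest of the group but inside the 6m range. At 28m replicate 6 was the lowest for Prx (3.48 CPM), Mal (0.552 CPM, the others at 0.792 to 1.77) and Pmp22 (12.96 CPM, the others at 18.4 to 34.6). The fibroblast markers Pdgfra and Dcn were lowest there too, at 9.05 and 140 CPM (the others at 12.5 to 17.7 and 169 to 554). Adipoq, an adipocyte marker, was also lowest, at 1.02 CPM. Lum, Col1a1, Col3a1 and the endothelial markers except Kdr lay among the others, and Kdr was highest at 45 CPM. The part of these cells in that library was not tested.

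Sox10 did not follow Prx in all of those libraries. It was at 2.24 CPM in 24m replicate 5 and at 1.95 CPM in 28m replicate 6, the highest of each group, and at 0.839 CPM in 24m replicate 4, the lowest. Among 4 genes that a muscle fibre switches on when it loses its nerve, chosen after the values were seen, Chrng, Runx1 and Ncam1 were highest in these libraries and Myog was not. Chrng, the fetal subunit of the acetylcholine receptor, was at 15 and 32.1 CPM in 24m replicates 4 and 5 and at 14.1 CPM in 28m replicate 6, whereas the other old mice were at 0.0769 to 7.24 CPM at 24m and at 0.652 to 2.71 CPM at 28m. Runx1, a transcription factor of denervated fibres, was at 61.4, 76.2 and 31.1 CPM in these 3 libraries, with the others at 3.35 to 18.8 CPM at 24m and at 4.80 to 15.3 CPM at 28m. Ncam1, an adhesion molecule, was at 15.1, 60.3 and 35 CPM, the first only just above the 4.42 to 14.4 CPM of the other 24m mice, and the others at 28m were at 3.13 to 10.4 CPM. Myog, a myogenic factor, was at 38.4, 23.8 and 13.9 CPM, of which the last 2 lay inside the range of the others, 3.49 to 23.9 CPM at 24m and 4.28 to 29 CPM at 28m. Over all 29 libraries r between Prx and Mal was 0.85, and it was 0.67 over the 26 without these 3. Between Prx and Mbp it was 0.82 and 0.77.

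**Figure D4:**
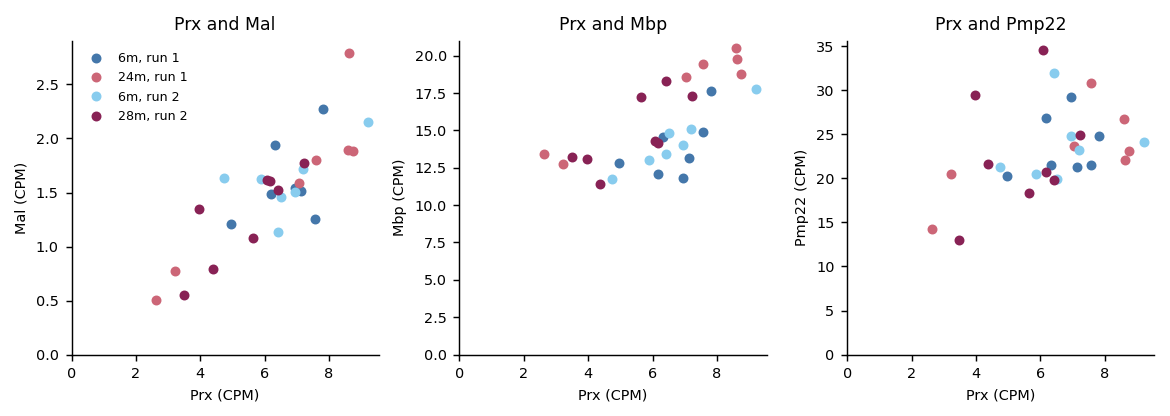
CPM of Prx (x axes) against Mal, Mbp and Pmp22 (y axes, all from 0), 1 point for each of the 29 libraries, coloured by group. Prx and Mal run down together to 2.62 and 0.506 CPM in 24m replicate 5, while Mbp in that library stays at 13.4 CPM and Pmp22 scatters widely at a given Prx.

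Of the other Schwann cell and nerve genes, chosen as lists with earlier results of these data known, 9 of the 32 tested passed at 28m, 3 higher and 6 lower, beside 47.3% of all genes, and 0 of 32 passed at 24m. With the length and GC trend removed, 5 of the 32 rose and 4 fell at 28m, beside 37.3% of all genes called in either direction. Of the compact myelin list 0 of 2 tested genes passed at 28m. Mal was at -0.34 (edgeR adjusted p = 0.221) and Pllp, plasmolipin, at -0.19 (0.380), and Pmp2 did not pass the filter on low counts. With the length and GC trend removed Pllp fell by 0.48 (edgeR adjusted p = 0.0334), a call lost in 4 of the 15 fits that leave out 1 library. The median of the list was -0.26 at 28m and -0.06 at 24m, beside 0.01 and 0.03 over all genes.

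Of the junction, adhesion and scaffold genes 0 of 7 rose and 1 fell at 28m, when 24.3% of all genes rose and 22.9% fell. Drp2, the partner of periaxin in the complex that ties the sheath to the basal lamina, fell by 0.94 (SE 0.19, edgeR adjusted p = 0.00184), and by 0.58 with the length and GC trend removed (edgeR adjusted p = 0.0118). At 24m Drp2 was at -0.04 (edgeR adjusted p = 0.925). The difference between the ages, -0.88 (interval -1.42 to -0.33), did not pass the adjustment over all genes (edgeR adjusted p = 0.398). Nfasc, a node adhesion molecule, was at -0.74 (edgeR adjusted p = 0.0641), Cldn19 at 0.39 (0.157), Gldn, which gathers nodal channels, at 0.60 (0.239) and Mag at -0.15 (0.671). At 28m the highest library of Gldn was at 2.80 CPM beside a median of 0.665, and that of Cldn19 at 2.47 beside 1.18.

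Of the transcription factors beside Sox10 and Egr2, 0 of 5 rose and 2 fell at 28m, beside 24.3% and 22.9% of all genes. Zeb2, a repressor that Schwann cells need to differentiate but many other cells use, fell by 0.42 (edgeR adjusted p = 0.00269), and Nfatc4, a calcineurin-dependent factor, fell by 0.50 (edgeR adjusted p = 0.0238, and 0.0619 without 6m replicate 2). With the length and GC trend removed the list had 0 genes called, beside 37.3% of all genes. The estimate of Zeb2 then turned to 0.16 (interval -0.09 to 0.41, edgeR adjusted p = 0.305), and Nfatc4 was at -0.23 (0.302). Nab1, a partner of Egr2, was at 0.23 (edgeR adjusted p = 0.0555) and Pou3f1, a factor of promyelinating cells, at 0.45 (0.105). Of the ligands and receptors 0 of 5 rose and 1 fell, beside the same shares of all genes. Lgi4, a secreted signal of Schwann cells, fell by 0.54 (edgeR adjusted p = 0.0225, and 0.0537 without 6m replicate 2), its receptor Adam22 was at 0.09 (0.704), Erbb3 at -0.88 (0.0733) and Dhh, the hedgehog ligand of Schwann cells, at -0.32 (0.199). With the trend removed Lgi4 fell by 0.42 (edgeR adjusted p = 0.0432) and Adam22 rose by 0.53 (0.00855). Of the myelin lipid enzymes none of the 2 tested passed, with Aspa at 0.41 (edgeR adjusted p = 0.0902) and Ugt8a at -0.21 (0.567), and Aspa passed with the trend removed (0.55, 0.0368). With the trend removed and single libraries left out in turn, Lgi4 passed in 5 of 15 fits (highest adjusted p = 0.0917, without 6m replicate 2) and Aspa in 5 of 15 (0.0761, without 28m replicate 5).

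Of the genes of immature, nonmyelinating or injury-responsive Schwann cells 1 of 7 tested rose and 2 fell at 28m, when 24.3% of all genes rose and 22.9% fell. Gdnf, a neurotrophic factor that muscle fibres also make, rose by 1.5 (SE 0.28, edgeR adjusted p = 0.00115). Scn7a, a sodium channel of nonmyelinating Schwann cells, fell by 0.63 (edgeR adjusted p = 0.00160) and L1cam, an adhesion molecule of those cells and of axons, fell by 0.65 (edgeR adjusted p = 0.0268, and 0.0540 without 6m replicate 3). With the length and GC trend removed Gdnf and Scn7a still passed, and L1cam did not. Ncam1, which muscle fibres also make, was at 0.92 as counted (edgeR adjusted p = 0.0578) and at 0.39 without 28m replicate 6, which had the highest level at 35 CPM. With the trend removed it rose by 1.24 (edgeR adjusted p = 0.00994), and by 0.79 without that library. Ngfr, the low-affinity neurotrophin receptor of repair cells, was at 0.50 (edgeR adjusted p = 0.181). Of the axon list 2 of 4 tested genes rose, beside the same 24.3% of all genes. Uchl1, an abundant neuronal hydrolase, rose by 2.21 (SE 0.42, edgeR adjusted p = 0.00120) and Tubb3, a neuronal tubulin, rose by 0.93 (edgeR adjusted p = 0.0252, and 0.0506 without 6m replicate 7), the latter not with the trend removed. Stmn2 was at 0.105 and Prph at 0.27 (edgeR adjusted p = 0.717 and 0.445). Uchl1 was highest in the libraries with the highest Chrng and Runx1. It was at 73.2 and 32.5 CPM in 24m replicates 4 and 5 (the others at 3.73 to 7.51) and at 32.7 CPM in 28m replicate 6 (5.10 to 30.9). The cells that the Uchl1 reads came from were not tested. The neurofilament transcripts Nefl, Nefm and Nefh, which are kept mainly in neuron cell bodies outside the muscle, had at most 8 counts in any library and were at 0 in 27, 8 and 8 of the 29 libraries. At 24m Uchl1 was at 2.54 (interval 1.09 to 3.99, edgeR adjusted p = 0.200), or 1.60 without 24m replicate 4, which held 73.2 CPM, and Gdnf at 1.38 (edgeR adjusted p = 0.166).

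**Figure D5:**
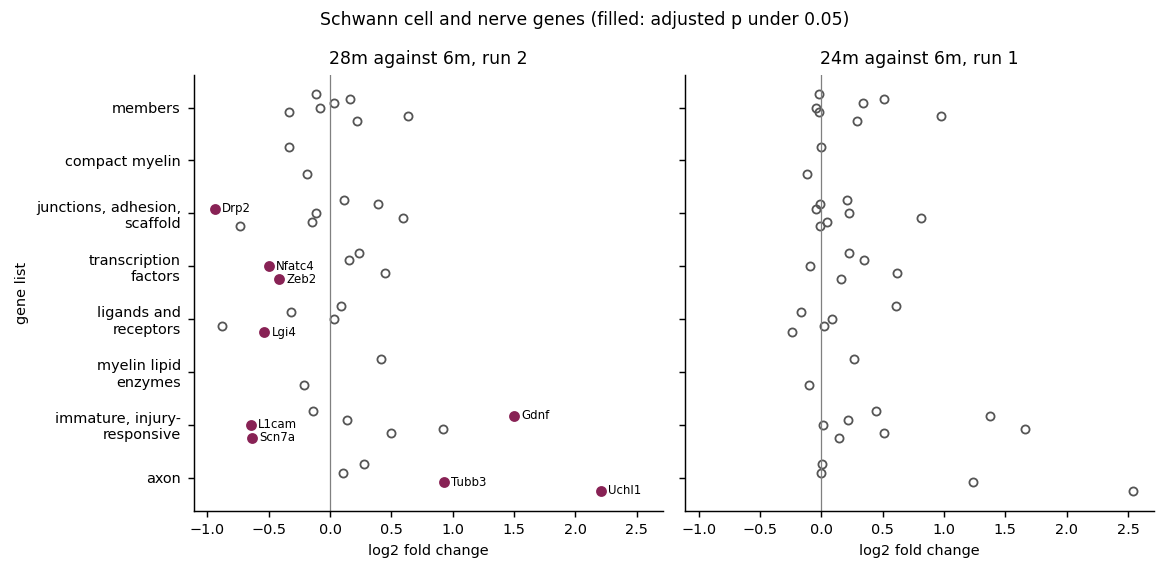
Log2 fold change (x axes) of the tested genes of 8 lists (rows) for 28m against 6m in the second run (left) and 24m against 6m in the first run (right), 1 point a gene, filled and named where edgeR's adjusted p was under 0.05. At 28m 9 points are filled, of which Uchl1 at 2.21 and Gdnf at 1.5 lie farthest right and Drp2 at -0.94 farthest left, and at 24m no point is filled.

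Some markers of other cells of the muscle passed at 28m, when 47.3% of all genes did. Endothelial markers fell in 4 of 5 cases (Tek by 0.80, edgeR adjusted p = 5.55e-05), beside 22.9% of all genes that fell. Their summed level was 159 to 254 CPM at 28m and 316 to 341 CPM at 6m in that run. In the first run the same 6m mice had 233 to 345 CPM, which overlaps the range at 28m. With the length and GC trend removed 3 of the 5 still fell, beside 15.4% of all genes. Fibroblast markers fell in 3 of 5 cases (Pdgfra by 0.92, edgeR adjusted p = 0.00166), beside the same 22.9% of all genes, with sums of 310 to 1133 CPM at 28m and 523 to 2741 CPM at 6m. Without 6m replicate 2 the calls of Col1a1 and Col3a1 were lost (edgeR adjusted p = 0.0729 and 0.240). With the trend removed 1 of the 5 fell, beside 15.4% of all genes. This was Col1a1, by 1.51 (edgeR adjusted p = 0.0465, and 0.210 without 6m replicate 2), and Pdgfra was at -0.44 (0.106). Of the adipocyte markers 0 of 5 passed and of the immune markers 0 of 3, beside 47.3% of all genes. The adipocyte sums were 9.77 to 174 CPM at 28m and 14.2 to 51.1 CPM at 6m. Of the tendon markers 1 of 5 rose (Scx by 1.07, edgeR adjusted p = 0.000718), beside 24.3% of all genes. Of the erythrocyte markers only Alas2 was tested (-0.43). Of the muscle fibre genes 2 of 5 rose, Tnni2 by 0.80 and Tnnt3 by 0.47, and 1 fell, Myh4 by 0.48 (edgeR adjusted p = 0.00541, 0.00706 and 0.0119), beside 24.3% of all genes that rose and 22.9% that fell. None of these 3 passed with the trend removed, where Tnni2 was at 0.36, Tnnt3 at 0.04 and Myh4 at -0.28 (edgeR adjusted p = 0.0566, 0.714 and 0.0741), and Acta1 fell by 0.22 (0.0295). That was 1 of 5 fibre genes called, beside 37.3% of all genes. The summed level of the 7 members was 44.0 to 70.7 CPM at 28m and 49.7 to 69.5 CPM at 6m in the second run, and 43.6 to 74.1 CPM at 24m and 48.8 to 66.2 CPM at 6m in the first. The part of the other cell types in the values of the members was not tested.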

How the data were processed

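Per the labels and the study's methods, the authors extracted total RNA from the whole TA, enriched poly-A RNA, prepared libraries with the NEBNext Ultra II kit and sequenced single-end reads on a NextSeq instrument. They demultiplexed with bcl2fastq 2.20, aligned to mm10 with STAR 2.5.4b and its GeneCounts option, and tested with DESeq2 1.22.2 in R 3.5.1. The deposited values are raw counts per gene, whole numbers without normalization, and no column lacked a sample. The strand setting is not given in the sources used here. The series' design text gives the numbers of mice at 24m and 28m in reverse, and the sample labels were used.

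All tests used R 4.3.3. Within each comparison filterByExpr of edgeR 4.0.16 removed low counts and TMM scaled the libraries, and ages of 1 run were tested by quasi-likelihood, with Benjamini-Hochberg values under 0.05 called. The prior count of log2 CPM was 2, and intervals are at 95%. One model of all libraries tested whether the age effects differed, and both sets of 6m libraries were compared. Length and GC content came from GENCODE vM21, with 20202 symbols and 1905 synonyms found and 430 genes unmatched, and their trend was removed by offsets from natural splines with 5 degrees of freedom. Library pairs of a 6m mouse were taken from the titles, where the second is marked as a repeat, and their deviations correlated at 0.218 to 0.814 across genes. The alternatives were DESeq2 1.42.0, limma-voom (limma 3.58.1), DESeq2's size factors, no filter, at least 10 counts in every library, the 6m libraries of the other run, the length and GC trend, leaving out each library and the mouse as a block. The edgeR, limma-voom, DESeq2 and trend-removed edgeR tests of each age comparison were first tried on simulated data with known changes. So was the edgeR test of the difference, with all libraries drawn as independent. The other fits were not tried in this way. Sequences came from RefSeq, and plots from Python 3.11.15 with matplotlib 3.10.9. An interval is that of the difference between groups, with the variation between mice in its error, and is not the range of single mice. At these depths a gene that never exceeds 3 counts is at the floor.

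The genes and lists were chosen with earlier results of these data known. Genes named were the members, up to 4 tested genes of each list with the lowest adjusted p at 28m, any list gene past the threshold at 24m, and the 10 genes nearest to the mean of the members over all libraries. Others named in the text were chosen after their values were seen. A few listed or nearest genes were left out of the lists and are not reported here.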

Additional observations from a re-analysis of the deposited data

Results flagged for a closer look

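Each member was checked in each of the 4 groups for a library that stood apart from the rest of its group by Dixon's test, 28 groups of values in all, of which chance would pick about 1 in 20. It picked 4. Pmp22 was at 32.0 CPM in 6m replicate 2 of the second run, with the next library at 24.8 CPM, and the first library of that mouse was also the highest of its group at 29.3 CPM. Sox10 was at 0.452 CPM in 6m replicate 3 of the second run, from 8 counts, with the next at 1.26 CPM, and the first library of that mouse was the lowest of its group at 0.804 CPM. S100b was at 5.91 CPM in 24m replicate 4, with the next at 1.80 CPM. S100b was also at 2.99 CPM in 28m replicate 3, with the next at 1.72 CPM. That mouse has 1 library, as have all old mice, so the 2 values of S100b have no repeat.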

How the results depend on the processing

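No member passed the threshold at 24m, between the runs or in the difference of the age effects under any alternative run, and at 28m Mbp passed with the length and GC trend removed (0.45) and S100b without 28m replicate 4 (0.75). Signs of estimates that had passed no test turned in at least 1 alternative for 4 members at 28m, 3 at 24m, 4 in the difference of the age effects and all 7 between the runs. With single libraries left out, the lowest or highest turned values at 28m were -0.02 for Mbp, 0.01 for Pmp22 and -0.02 for Egr2, at 24m 0.05 for Pmp22, 0.04 for Cnp and 0.12 for Prx, and in the difference 0.07 for Pmp22, 0.06 for Sox10 and 0.28 for S100b (without 24m replicate 4). Prx was at 0.13 at 28m and 0.01 at 24m with the median transcript length, and the difference was 0.08 for Mbp with the trend removed. With at least 10 counts in every library, Egr2 was tested at neither age and Sox10 not at 28m. Counts of called genes moved over 1.5 times with the 6m libraries of the other run (2981 at 28m and 46 at 24m), with DESeq2 (215 at 24m and 2 for the difference) and with at least 10 counts in every library (4 at 24m). Leaving out each library gave 5297 to 6688 genes at 28m, 4 to 30 at 24m (4 when replicate 5 or 6 of the first-run 6m group was left out, 5 for its replicate 2, 30 for 24m replicate 4) and 0 to 1657 for the difference, the latter without 24m replicate 4, and the cause was not tested. Leaving out single libraries for the list genes was added after the values were seen. S100b lay between 0.43 and 0.76 at 28m and between 0.39 and 1.15 at 24m with single libraries left out. With the mouse as a replicate block the difference and the runs had 0 genes called, as without it, and no call of a member changed. Outside the fits named here, each member stayed on its side of the threshold. Sox10, Egr2 and S100b rest on as few as 5 to 10 counts in single libraries, which limits what the depth can show.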
